A study of Mus musculus with 6 samples.

Results

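The 10 genes described here make fatty acids from acetyl-CoA, supply that acetyl-CoA or, for *Srebf1*, switch on the others, and they were taken by name from the 54167 genes with a value in each tumor. They are *Srebf1*, *Fasn*, *Acaca*, *Acly*, *Acss2*, *Scd1*, *Scd2*, *Elovl6*, *Fads1* and *Fads2*. The values come from RNA-seq of 6 colorectal tumors of C57BL/6J mice, 3 from Trp53fl/fl mice and 3 from Pvillin-Cre + Trp53fl/fl (VP) mice. Both genotypes carry *Trp53* alleles flanked by loxP sites, and in VP mice a Cre driven from the villin promoter deletes the gene in intestinal epithelium, while fibroblasts, immune cells and vessels in the same tumor keep it. Both groups received the same treatment, in which male mice of 8 weeks were injected with 10 mg/kg azoxymethane (AOM), a carcinogen, and drank 2.5% dextran sulfate sodium (DSS), an agent that causes colitis, in cycles of 7 days. Tumors were evaluated on day 98 and dissected away from normal tissue. The labels do not say whether the 3 tumors of a genotype came from 3 mice, so the p-values below measure the spread between these tumors.

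Fatty acid synthesis starts in the cytosol with acetyl-CoA, which ATP-citrate lyase (*Acly*) cuts from citrate and acetyl-CoA synthetase 2 (*Acss2*) makes from acetate. Acetyl-CoA carboxylase 1 (*Acaca*) turns it into malonyl-CoA, and fatty acid synthase (*Fasn*) builds palmitate from the latter. *Elovl6* lengthens palmitate to stearate, *Scd1* and *Scd2* place a double bond at the delta-9 position, and *Fads1* and *Fads2* place the delta-5 and delta-6 double bonds of polyunsaturated fatty acids. *Srebf1* encodes SREBP-1, the transcription factor that switches on most of these enzymes when insulin is high or sterols are low. Acetyl-CoA in the cytosol also donates the acetyl group for protein acetylation, and whether the transcripts of its suppliers differ between the genotypes is the question here.

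None of the 10 genes differed between the genotypes at an adjusted p-value under 0.05, and none did at an unadjusted p-value under 0.05 (limma on log2(TPM + 1), Benjamini-Hochberg adjustment over all genes tested). Of the 15117 genes tested, 25 (0.165%) passed the adjusted and 1892 (12.5%) the unadjusted threshold. In all 10 genes the values of the genotypes overlapped, while 2922 genes tested (19.3%) had no overlap. TPM (transcript abundances) are values that the authors scaled for transcript length and library size, so levels of different genes can be set side by side. All 10 genes passed the filter (1 TPM or more in 3 or more tumors), and their lowest value in any tumor was 9.43 TPM. The log2 fold changes, VP minus Trp53fl/fl, ran from -0.19 for *Fads1* to 0.23 for *Acss2*, with 4 genes above and 6 below 0 (3 and 7 after quantile normalization, 1 and 9 after centring on epithelial markers). Their median was -0.11, against -0.07 for all genes tested. The median of the 10 genes was -0.02, -0.16 and -0.09 without VP replicates 1, 2 and 3. It was -0.06, -0.12 and -0.03 without Trp53fl/fl replicates 1, 2 and 3. With median-of-ratios rescaling it was -0.03, where the median of all genes was 0.0002. The 95% limma intervals of the 10 ratios, VP over Trp53fl/fl on the TPM + 1 scale, lay between 0.633 and 1.53. *Trp53*, as the check of the labels, was at 124.94, 99.30 and 147.45 TPM in Trp53fl/fl tumors and at 38.45, 32.79 and 27.83 TPM in VP tumors (log2 fold change -1.87, limma adjusted p = 0.0207). In bulk tumors, fewer cells of a type and less RNA per cell cannot be told apart.

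**Figure D1:**
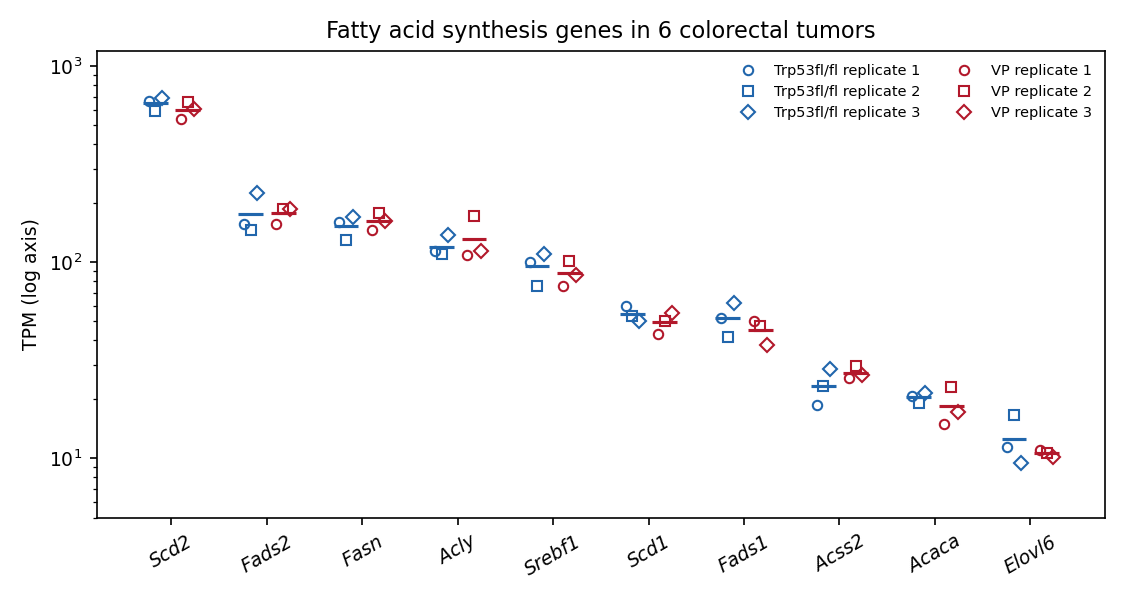
TPM on a log axis for the 10 genes, ordered by their mean, with 1 symbol per tumor, the Trp53fl/fl tumors in blue and the VP tumors in red, and a line at each genotype's mean. The genes span from 9.43 TPM (*Elovl6*) to 692.96 TPM (*Scd2*), and the 2 colors overlap for every gene.

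*Acly* lies on chromosome 11 from 100476353 to 100528000 (GRCm38, GENCODE M21, as for the other genes). It was at 114.10, 109.76 and 137.47 TPM in Trp53fl/fl tumors and at 109.69, 173.23 and 114.09 TPM in VP tumors. The other two VP tumors lay at the level of the lower Trp53fl/fl tumors, and VP replicate 2 was the highest of the 6. The means were 120.4 ± 14.9 TPM and 132.3 ± 35.5 TPM (SD, n = 3 each), and the ratio on the TPM + 1 scale had a 95% interval from 0.787 to 1.48 (log2 fold change 0.11, limma adjusted p = 0.826). Without VP replicate 2 the log2 fold change was -0.10, so the sign rested on this tumor.

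*Acss2* (chromosome 2 from 155517948 to 155585724) had the largest log2 fold change of the 10 genes. Its values were 18.69, 23.37 and 28.54 TPM in Trp53fl/fl tumors and 25.83, 29.71 and 26.56 TPM in VP tumors. Trp53fl/fl replicate 3 lay among the VP tumors and the other two below them. The means were 23.5 ± 4.93 TPM and 27.4 ± 2.06 TPM (SD, n = 3 each). This was a log2 fold change of 0.23, with a 95% interval from -0.16 to 0.62 (limma adjusted p = 0.583). Without Trp53fl/fl replicate 3 it was 0.37 and the unadjusted p was 0.0459 (limma adjusted p = 0.304), and without Trp53fl/fl replicate 1 it was 0.08. In each tumor *Acly* stood 4.25 to 6.10 times above *Acss2* in TPM. This ratio was 5.21 ± 0.781 in Trp53fl/fl and 4.79 ± 0.901 in VP tumors (SD, n = 3 each), and the tumors of the genotypes overlapped. The genotypes differed in it by -0.13 on the log2 scale, with a range from -0.28 without VP replicate 2 to -0.0056 without Trp53fl/fl replicate 1.

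The 250 bases before the RefSeq starts (GRCm38.p6) of these suppliers and of *Fasn* are printed because the question turns on the acetyl-CoA suppliers and *Fasn* is the synthase they feed. They were chosen after the values were seen. Capitals mark the GC box GGGCGG, the letters that Sp1 binds, and the NF-Y box CCAAT, both on either strand. They lie at chr11:100528001-100528250 on the minus strand (*Acly*), chr2:155517793-155518042 on the plus strand (*Acss2*) and chr11:120824548-120824797 on the minus strand (*Fasn*).
Acly: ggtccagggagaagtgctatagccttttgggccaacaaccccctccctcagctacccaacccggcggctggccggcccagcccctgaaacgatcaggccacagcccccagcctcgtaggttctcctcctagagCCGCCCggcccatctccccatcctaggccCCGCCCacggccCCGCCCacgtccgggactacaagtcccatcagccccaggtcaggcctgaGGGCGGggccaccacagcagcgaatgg
Acss2: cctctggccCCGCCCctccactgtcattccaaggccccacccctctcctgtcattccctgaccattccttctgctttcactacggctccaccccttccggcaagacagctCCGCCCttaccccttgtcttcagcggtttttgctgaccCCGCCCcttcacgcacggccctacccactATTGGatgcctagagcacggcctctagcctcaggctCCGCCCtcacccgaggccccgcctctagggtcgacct
Fasn: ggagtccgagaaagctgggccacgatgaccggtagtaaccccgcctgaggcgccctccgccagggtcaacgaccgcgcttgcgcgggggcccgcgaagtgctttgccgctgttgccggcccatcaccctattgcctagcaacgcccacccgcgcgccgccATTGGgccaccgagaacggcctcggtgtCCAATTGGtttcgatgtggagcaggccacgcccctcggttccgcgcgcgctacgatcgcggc

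In these windows *Acly* held 4 GC boxes and no NF-Y box, *Acss2* held 4 GC boxes and 1 NF-Y box, and *Fasn* held 3 NF-Y boxes, 2 of which overlap on opposite strands, and no GC box. Over all 32851 RefSeq promoters of the same length, 32.7% held a GC box and 33.8% an NF-Y box. RefSeq promoters were matched for 7 of the 10 genes, and *Scd1*, *Scd2* and *Fads1* had none. The sterol regulatory element core TCACNCCAC, a binding sequence of SREBP, was in none of the 9 promoters of those 7 genes and in 1.05% of all promoters. The E-box CACGTG was likewise in none of the 9, and in 6.02% of all promoters. Both strands were read. The only *Acaca* window, chr11:84195188-84195437 on the plus strand, lies inside the gene as GENCODE M21 places it (84129672 to 84401651). The bases before that annotated start of *Acaca* were not searched. These counts describe the letters in the windows only.

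*Srebf1* (chromosome 11 from 60199089 to 60222581) was at 100.50, 75.73 and 110.00 TPM in Trp53fl/fl tumors and at 75.96, 101.35 and 86.62 TPM in VP tumors. The lowest tumors of both genotypes were nearly level, and all VP tumors lay within the range of the Trp53fl/fl tumors. This gave a log2 fold change of -0.11 with a 95% interval from -0.52 to 0.30 (limma adjusted p = 0.807). A value per gene does not separate the transcripts of SREBP-1a and SREBP-1c, which start at different promoters of *Srebf1*.

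*Fasn* (chromosome 11 from 120805846 to 120824547) was at 161.06, 130.05 and 169.92 TPM in Trp53fl/fl tumors and at 145.62, 179.40 and 163.27 TPM in VP tumors. The means of 153.7 ± 20.9 TPM and 162.8 ± 16.9 TPM (SD, n = 3 each) differed by less than either SD. Between the genotypes, the log2 fold change was 0.09 with a 95% interval from -0.24 to 0.41 (limma adjusted p = 0.808). *Fasn* stood at 1.60, 1.72 and 1.54 times *Srebf1* in the Trp53fl/fl tumors and at 1.92, 1.77 and 1.88 times in the VP tumors. All 3 VP tumors were above all 3 Trp53fl/fl tumors in this ratio, which no single gene of the list showed. It was chosen after the values were seen, and the difference on the log2 scale was 0.20 (p = 0.1 by a two-sided exact permutation test, which 3 tumors against 3 cannot go below, and 0.5 after Benjamini-Hochberg adjustment over the 5 ratios computed). Leaving out 1 tumor in turn gave 0.16 to 0.24.

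*Acaca* (chromosome 11 from 84129672 to 84401651) was at 20.82, 19.23 and 21.66 TPM in Trp53fl/fl tumors and at 14.96, 23.09 and 17.20 TPM in VP tumors. The Trp53fl/fl tumors were close together, at 20.6 ± 1.23 TPM, and the VP tumors lay on both sides of them, at 18.4 ± 4.20 TPM (SD, n = 3 each). This gave a log2 fold change of -0.17 with a 95% interval from -0.57 to 0.23 (limma adjusted p = 0.678), which became -0.04 without VP replicate 1 and -0.34 without VP replicate 2. Of the distinct 75-base stretches in the *Acaca* transcripts of GENCODE M21, 26.8% also occur in transcripts of other genes, mainly *Gm5182*, which was listed at 0 TPM in every tumor. *Gm42553* and *Gm10687*, which share fewer, were between 0.30 and 1.82 TPM. The value of *Acaca* could depend on how reads were divided between these genes, which was not tested. *Fasn* stood 6.76 to 9.73 times above *Acaca*. That ratio was 7.45 ± 0.596 in Trp53fl/fl and 8.999 ± 1.07 in VP tumors (SD, n = 3 each), a difference of 0.27 on the log2 scale (exact permutation test, two-sided, p = 0.2, adjusted p = 0.5).

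On the chromosomes, 4 of the 10 genes, *Srebf1*, *Acaca*, *Acly* and *Fasn*, share chromosome 11 with the floxed *Trp53* (69580359 to 69591873). Their distances from *Trp53* are 9.36, 14.54, 30.88 and 51.21 Mb. Their log2 fold changes were -0.11, -0.17, 0.11 and 0.09. A further 4, the *Scd* and *Fads* genes, lie on chromosome 19.

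*Scd2*, one of the neighbouring delta-9 desaturase genes (chromosome 19 from 44293674 to 44306864), was the most abundant of the 10 genes, above 98.4% of all genes tested. It was at 668.28, 591.06 and 692.96 TPM in Trp53fl/fl tumors and at 539.89, 653.59 and 608.13 TPM in VP tumors. The lowest value was in VP replicate 1 and the highest in Trp53fl/fl replicate 3, with the other tumors mixed between them. *Scd2* was also the steadiest of the 10, with a coefficient of variation of 9.04% over the 6 tumors. Between the genotypes, the log2 fold change was -0.12 with a 95% interval from -0.40 to 0.17 (limma adjusted p = 0.696). With 1 tumor left out it ranged from -0.18 without Trp53fl/fl replicate 2 to -0.04 without VP replicate 1.

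*Scd1* (chromosome 19 from 44394455 to 44407879), the form that prevails in liver and fat, was at 60.03, 53.22 and 49.97 TPM in Trp53fl/fl tumors and at 43.38, 50.39 and 55.34 TPM in VP tumors. The log2 fold change was -0.13 with a 95% interval from -0.44 to 0.18 (limma adjusted p = 0.681), and it ranged from -0.21 without VP replicate 3 to -0.04 without VP replicate 1. *Scd2* exceeded *Scd1* in every tumor, by 10.99 to 13.87 times in TPM, and this ratio was 12.04 ± 1.59 in Trp53fl/fl and 12.1 ± 1.03 in VP tumors (SD, n = 3 each). On the log2 scale the genotypes differed by 0.016 in it (exact permutation test, two-sided, p = 1). Of the 75-base stretches of *Scd1*, 3.15% occur in other genes, mainly *Scd3*, and 1.78% of those of *Scd2*, mainly in *Scd1*.

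*Elovl6* (chromosome 3 from 129532355 to 129638495) was the lowest of the 10, near the middle of the genes tested, with 42.9% of them below it. It was at 11.43, 16.70 and 9.43 TPM in Trp53fl/fl tumors and at 11.05, 10.71 and 10.19 TPM in VP tumors. The VP tumors were almost level, and all lay inside the wide Trp53fl/fl range, whose top was replicate 2. The log2 fold change was -0.18 with a 95% interval from -0.66 to 0.30 (limma adjusted p = 0.723), and without Trp53fl/fl replicate 2 it was 0.03.

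*Fads1* (chromosome 19 from 10182888 to 10196877) was at 52.15, 41.88 and 62.21 TPM in Trp53fl/fl tumors and at 50.42, 47.38 and 38.03 TPM in VP tumors. Its log2 fold change was -0.19, with a 95% interval from -0.60 to 0.23 (limma adjusted p = 0.661). It was -0.05 without Trp53fl/fl replicate 3, -0.07 without VP replicate 3 and -0.33 without Trp53fl/fl replicate 2. *Fads2* (chromosome 19 from 10062765 to 10101746) was at 156.38, 146.40 and 227.10 TPM in Trp53fl/fl tumors and at 157.46, 188.22 and 187.67 TPM in VP tumors. The means of *Fads2* were 176.6 ± 44.0 TPM and 177.8 ± 17.6 TPM (SD, n = 3 each), the smallest difference of the 10 (log2 fold change 0.03, 95% interval -0.40 to 0.46, limma adjusted p = 0.954). In TPM, *Fads2* stood 2.999 to 4.93 times above *Fads1*, by 3.38 ± 0.341 in Trp53fl/fl and 4.01 ± 0.906 in VP tumors (SD, n = 3 each), with overlap between the genotypes (exact permutation test, two-sided, p = 0.4, adjusted p = 0.625). The difference in this ratio was 0.23 on the log2 scale, 0.06 without VP replicate 3 and 0.39 without VP replicate 1.

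**Figure D2:**
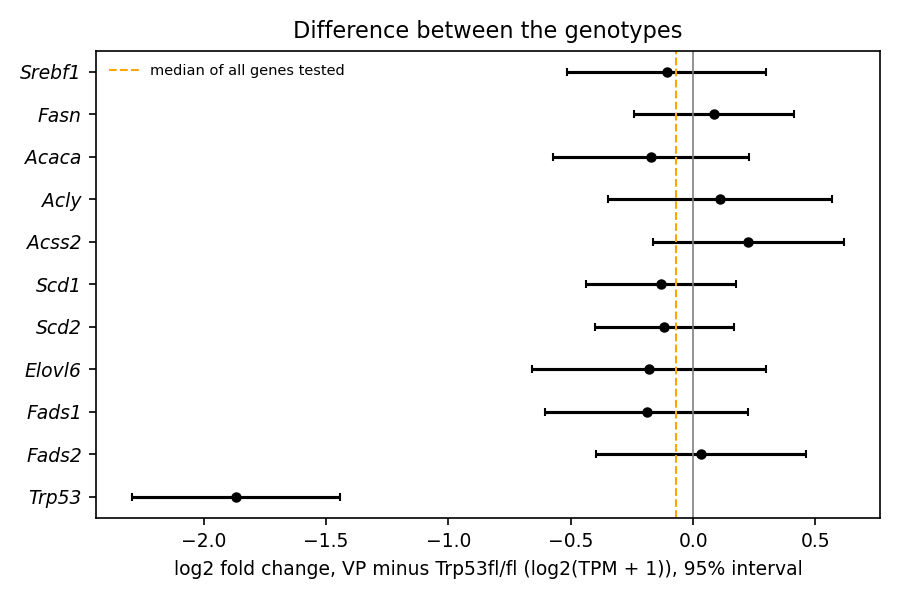
Log2 fold change on the log2(TPM + 1) scale, VP minus Trp53fl/fl, with its 95% limma interval for the 10 genes and *Trp53*; the dashed line is the median of all genes tested, -0.07. The intervals of the 10 genes include 0, and that of *Trp53* lies between -2.29 and -1.44.

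Ordered by their mean over the 6 tumors, the levels ran from *Scd2* (626 TPM) over *Fads2* (177), *Fasn* (158), *Acly* (126), *Srebf1* (91.7), *Scd1* (52.1), *Fads1* (48.7), *Acss2* (25.4) and *Acaca* (19.5) to *Elovl6* (11.6). *Scd2* was clear of all others in every tumor. The ranges over the 6 tumors overlapped between *Fads2*, *Fasn* and *Acly*, between *Scd1* and *Fads1*, between *Acss2* and *Acaca*, and between *Acaca* and *Elovl6*. *Srebf1* and *Acly* met at their ends, with 110.00 TPM as the highest *Srebf1* value and 109.69 TPM as the lowest *Acly* value. *Srebf1* stood clear of *Scd1* and *Fads1* below it.

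Within a genotype, many of the 10 genes ranked the tumors alike. Trp53fl/fl replicate 3 had the highest value of its genotype in 8 of the 10 genes, and VP replicate 2 had it in 7. Trp53fl/fl replicate 2 and VP replicate 1 were the lowest of their genotype in 7 and 8 genes. The same order of tumors in both genotypes, replicate 3 over 1 over 2 in Trp53fl/fl and replicate 2 over 3 over 1 in VP, was held by 6 genes, namely *Srebf1*, *Fasn*, *Acaca*, *Acly*, *Scd2* and *Fads2*. Of all genes tested 5.15% held it. Counted separately, the Trp53fl/fl order was held by 7 of the 10 genes and by 25.9% of all genes tested. The VP order was held by 7 of the 10 genes and by 16.7% of all genes tested. For the highest and lowest tumors no share over all genes was computed. The patterns were noticed in these values, so their counts are a description. *Acss2* and *Fads1* kept the order in 1 genotype only, and *Scd1* and *Elovl6* in neither. The summed TPM of the 10 genes was 1363, 1207 and 1509 in Trp53fl/fl tumors and 1174, 1457 and 1307 in VP tumors. Over the 6 tumors the highest value was 1.28 times the lowest for *Scd2* and 1.77 times for *Elovl6*, with the other 8 genes between. The median coefficient of variation was 15.7%, against 18.2% over all genes tested.

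**Figure D3:**
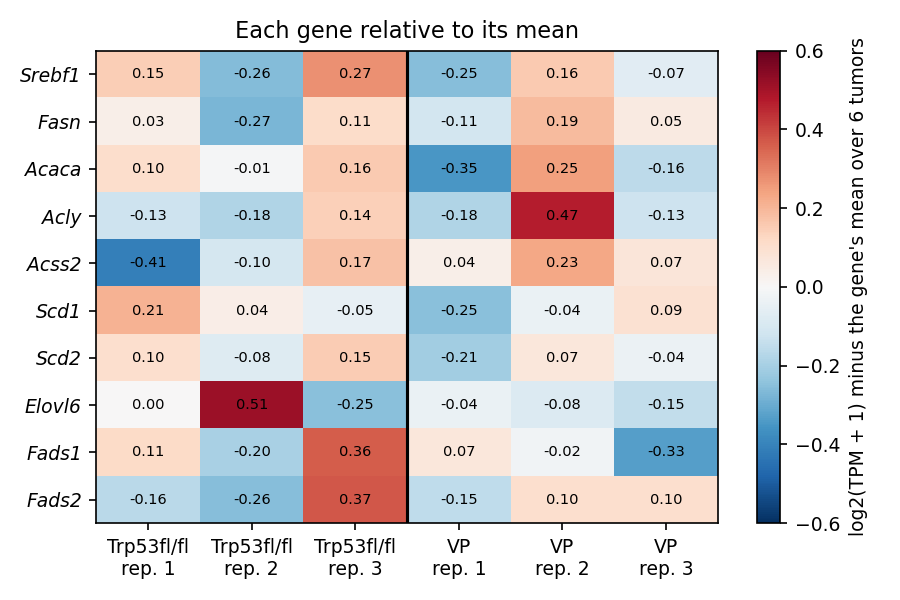
Each gene's log2(TPM + 1) minus its mean over the 6 tumors, in color and as a number, with 1 column per tumor and a line between the genotypes. Columns of Trp53fl/fl replicate 3 and VP replicate 2 are mostly red (higher) and those of Trp53fl/fl replicate 2 and VP replicate 1 mostly blue (lower).

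The tumors hold several cell types. The 12 epithelial markers, among them *Epcam*, *Krt8* and *Lgals4*, summed to between 11011 and 11452 TPM in Trp53fl/fl tumors and between 12450 and 13482 TPM in VP tumors, without overlap, and 9 of them had a positive log2 fold change. Taken singly, 3 of the 12 had no overlap (*Krt19*, *Cldn7* and *Lgals4*), against 19.3% of all genes tested. *Epcam* (log2 fold change 0.0028), *Krt18* (0.0036) and *Cdh1* (0.024) were nearly level, and *Krt20*, *Cldn4* and *Cdx2* were negative (-0.028, -0.029 and -0.0089). When each tumor was centred on the 12 markers, 9 of the log2 fold changes of the 10 genes were negative, with a median of -0.26, while the median of all genes tested moved from -0.07 to -0.22. No gene of the 10 passed either threshold there, and the lowest limma adjusted p was 0.261.

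Fat cells use this pathway heavily. Their defining transcripts *Lep*, *Adipoq* and *Plin1* were listed at 0 TPM in all tumors, at no more than 0.23 TPM and at no more than 0.05 TPM, respectively. The 9 adipocyte markers summed to between 21.3 and 31.2 TPM in Trp53fl/fl and between 21.5 and 38.3 TPM in VP tumors, mostly *Fabp4*, which endothelium and macrophages also express. Of the same list, *Lipe* was at 5.22 to 7.64 TPM and *Cidec* at 1.27 to 5.47 TPM over the 6 tumors. The 9 squamous and sebaceous markers summed to between 72.0 and 99.1 TPM and between 27.6 and 111.5 TPM, and their part in the levels of the 10 genes was not tested. Of these, *Krt14* was at 6.24 to 75.09 TPM and *Krt13* at 14.93 to 42.12 TPM, while *Krt5* was at no more than 1.09 TPM and *Trp63* at no more than 0.08 TPM. *Krt4* was at 1.81, 2.70 and 1.65 TPM in Trp53fl/fl and at 3.81, 6.22 and 3.07 TPM in VP tumors, without overlap (limma unadjusted p = 0.0193). Smooth muscle markers (6 genes) were at 687, 488 and 809 TPM in Trp53fl/fl tumors and at 873, 1347 and 415 TPM in VP tumors, so that the same tumors of each genotype were highest as for most of the 10 genes. The lowest was replicate 2 in Trp53fl/fl, as for 7 of the 10 genes, and replicate 3 in VP, where replicate 1 was lowest for 8 of the 10 genes. The part of the smooth muscle markers in the levels of the 10 genes was not tested. The 8 neutrophil markers summed to between 401 and 729 TPM in Trp53fl/fl and between 1176 and 1992 TPM in VP tumors, mostly *S100a8* and *S100a9*. Taken singly, 5 of the 8 had no overlap, against 19.3% of all genes tested, while *Ly6g*, *Csf3r* and *Mmp9* overlapped. The part of the neutrophil markers was not tested either. The sums in Trp53fl/fl and VP tumors overlapped for fibroblast (7 genes, 834 to 923 against 698 to 1035 TPM), macrophage (8 genes, 449 to 483 against 469 to 575 TPM), lymphocyte (8 genes, 410 to 823 against 385 to 840 TPM), endothelial (5 genes, 70.4 to 82.9 against 82.0 to 90.4 TPM) and neuron and glia markers (6 genes, 7.0 to 10.7 against 7.65 to 15.9 TPM).

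Other genes of the pathway were taken from 7 lists, and none of those tested passed an adjusted p-value under 0.05 in either direction. Among the 15 regulators of SREBP and of the carbohydrate-sensing factor ChREBP, 1 passed the unadjusted threshold of 0.05, in the direction of lower values in VP tumors. This was *Insig2*, which retains the SREBP precursor in the endoplasmic reticulum. It was at 35.90, 41.04 and 35.36 TPM in Trp53fl/fl tumors and at 23.67, 30.34 and 29.94 TPM in VP tumors, without overlap (log2 fold change -0.41, SE 0.14, limma adjusted p = 0.331). The median of this list was -0.04.

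Of the 15 genes tested from the list of acetyl-CoA and citrate supply (17 listed), 9 were above and 6 below 0 in log2 fold change (median 0.0059), and 1 passed the unadjusted threshold in each direction. *Acss1*, the mitochondrial counterpart of *Acss2*, was at 14.76, 15.82 and 19.85 TPM in Trp53fl/fl tumors and at 26.42, 20.94 and 19.99 TPM in VP tumors. The lowest VP tumor was barely above the highest Trp53fl/fl tumor (log2 fold change 0.40, SE 0.16, limma adjusted p = 0.388). *Pdk4*, a kinase that shuts off pyruvate dehydrogenase, was at 3.48, 4.83 and 3.76 TPM in Trp53fl/fl tumors and at 2.56, 2.06 and 2.77 TPM in VP tumors. All VP tumors were lower (log2 fold change -0.53, SE 0.18, limma adjusted p = 0.341). The citrate carrier *Slc25a1*, which brings the substrate of ATP-citrate lyase into the cytosol, was at 138.5 ± 5.80 TPM and 135.8 ± 20.8 TPM (SD, n = 3 each), and this gene was added after the values were seen.

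The 8 genes of NADPH supply, which provides the reducing power for fatty acid synthesis, held 2 positive and 6 negative log2 fold changes, and none passed the unadjusted threshold. The largest differences belonged to malic enzyme *Me1*, at 26.53, 36.73 and 15.99 TPM against 10.26, 21.04 and 17.09 TPM (log2 fold change -0.66, SE 0.35), and to *Pgls* of the pentose phosphate pathway (-0.30, SE 0.24). In both the genotypes overlapped. Of 10 other genes for malonyl-CoA and fatty acid synthase activities, 9 were in the data and 8 were tested, none past the unadjusted threshold. Here the largest differences were those of *Acacb*, the acetyl-CoA carboxylase at the mitochondrion, which was at 1.31, 1.82 and 1.25 TPM against 3.44, 2.21 and 1.64 TPM (log2 fold change 0.45, SE 0.24), and of *Aasdhppt*, which attaches the phosphopantetheine arm to fatty acid synthase (-0.26, SE 0.15).

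In the list of other elongation and desaturation genes 12 of 16 were tested, 6 in each direction, and 1 passed the unadjusted threshold, with lower values in VP tumors. This was *Scd3*, a neighbour of *Scd1* and *Scd2*, at 8.35, 8.12 and 4.26 TPM in Trp53fl/fl tumors and at 2.28, 3.30 and 5.33 TPM in VP tumors. VP replicate 3 lay above Trp53fl/fl replicate 3, so the genotypes overlapped (log2 fold change -0.78, SE 0.32, limma adjusted p = 0.388). Reads that *Scd3* shares with *Scd1* could have been divided between them.

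The list of acyl-CoA activation and glycerolipid synthesis, the steps that use new fatty acids, had 11 positive and 5 negative log2 fold changes among 16 genes tested of 18, none past the unadjusted threshold. *Acsl1*, which activates long-chain fatty acids, was at 19.19, 21.20 and 19.59 TPM against 18.10, 13.30 and 17.26 TPM, without overlap (log2 fold change -0.30, SE 0.15, limma adjusted p = 0.441), and *Lpin2* had -0.24 (SE 0.19). Among 10 targets of SREBP-2, the relative of SREBP-1 that drives cholesterol synthesis, 6 log2 fold changes were positive and 4 negative, with a median of 0.10, and none of the 10 passed the unadjusted threshold. The largest differences were those of *Idi1*, an isomerase of the mevalonate pathway, at 71.17, 109.92 and 47.82 TPM against 47.65, 58.30 and 56.10 TPM (log2 fold change -0.42, SE 0.28, limma adjusted p = 0.551), and of *Hmgcs1*, the synthase that opens that pathway, at 130.91, 143.95 and 94.87 TPM against 106.62, 98.39 and 101.77 TPM (-0.25, SE 0.16, limma adjusted p = 0.544). The genotypes overlapped for both.

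**Figure D4:**
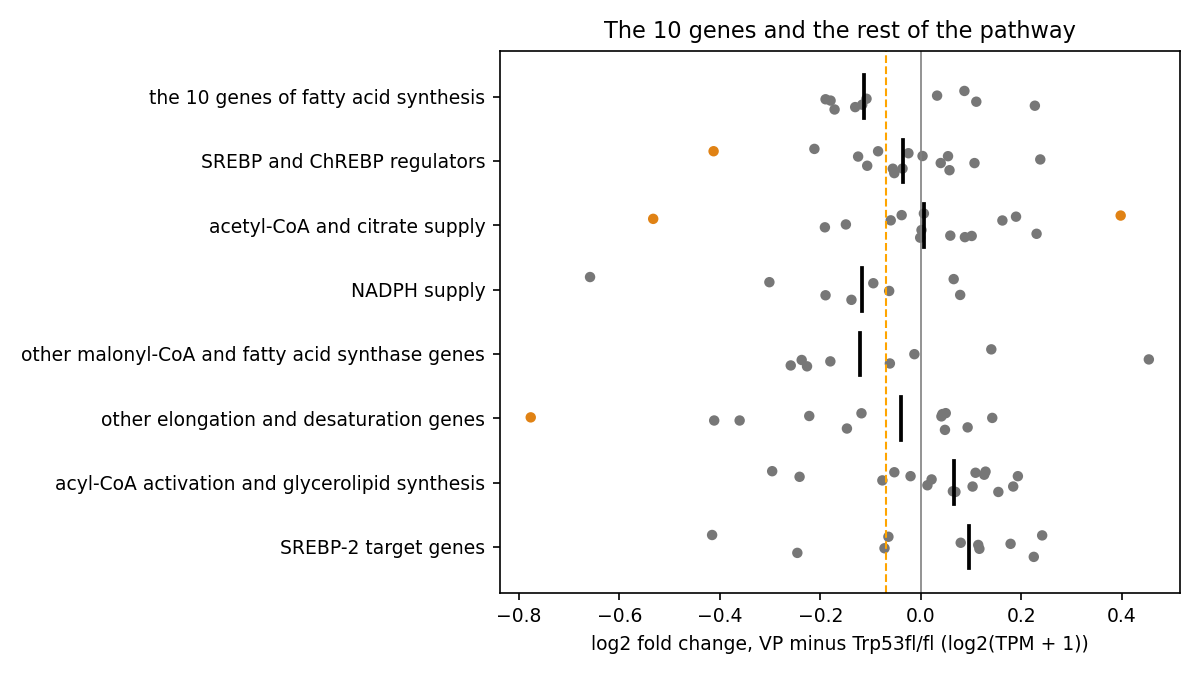
Log2 fold change, VP minus Trp53fl/fl, of every tested gene in the 8 lists, with a black bar at each list's median, genes with an unadjusted p-value under 0.05 in orange and the median of all genes tested as a dashed line. The 10 genes lie between -0.19 and 0.23 and hold no orange point, while the other lists hold 4.

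**Figure D5:**
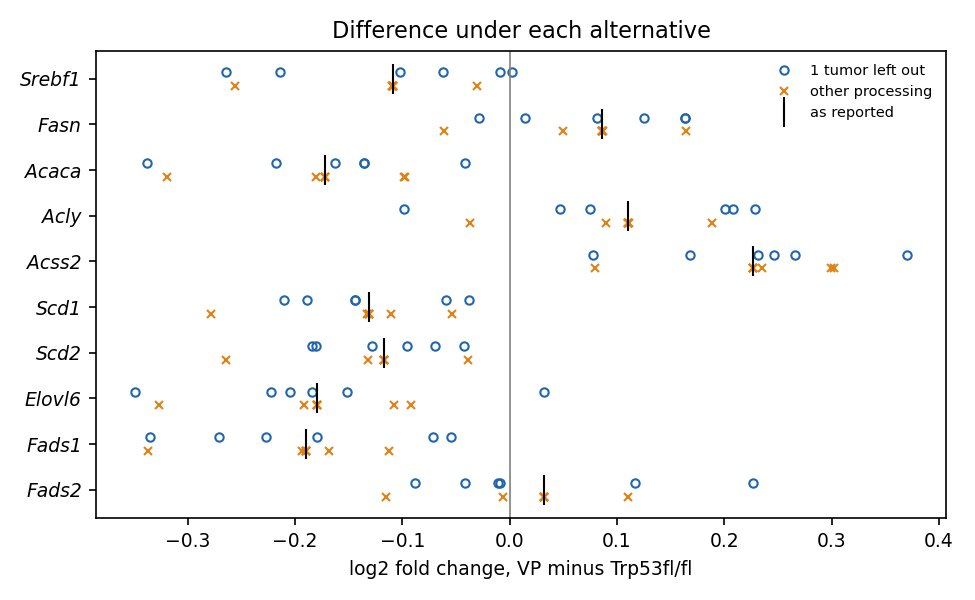
Log2 fold change of each of the 10 genes as reported (black bar), with 1 tumor left out (blue circles) and under other processing (orange crosses). *Acaca*, *Acss2*, *Scd1*, *Scd2* and *Fads1* stay on 1 side of 0, and *Srebf1*, *Fasn*, *Acly*, *Elovl6* and *Fads2* cross it.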

How the data were processed

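The authors selected poly(A) RNA, prepared paired-end Illumina libraries and deposited 1 table of TPM per gene with 2 decimals, in which each column sums to between 999964 and 1000067. The submitters' processing notes name HISAT2, StringTie and the build mm9, without versions. TPM keep no read number, so depth and counting error are unknown, and a change in abundant transcripts shifts all others. Columns were assigned through the codes in the sample labels.

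From the deposited TPM, log2(TPM + 1) was tested with limma 3.58.1 in R 4.3.3 (empirical Bayes with trend) over genes that reached 1 TPM in 3 or more tumors, after the procedure was tested on simulated data. Coordinates and transcripts are from GENCODE M21 (GRCm38), which holds 52093 of the 54167 gene IDs (96.17%), and promoters from RefSeq. The genes and lists were chosen with earlier results of these data known. The genes named are the 10 members, *Trp53*, 3 further genes that are not reported here (2 of them were left out of 1 list and its counts), and, per list, those with an unadjusted p-value under 0.05 or otherwise the 2 largest differences. Promoters were to be shown where the 250 bases before to 50 after the start held the sterol element. Only the 250 bases before the start were searched, and none of the windows held it. The alternatives were 8 other settings and each of the 6 tumors left out.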

Additional observations from a re-analysis of the deposited data

How the results depend on the processing

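No alternative brought 1 of the 10 genes past the adjusted threshold, and of 140 values of their log2 fold changes under 14 alternatives 128 kept their sign and 12 changed it. Leaving out 1 tumor in turn gave -0.26 to 0.0020 for *Srebf1*, -0.028 to 0.16 for *Fasn*, -0.099 to 0.23 for *Acly*, -0.35 to 0.032 for *Elovl6* and -0.089 to 0.23 for *Fads2*. Centring on the epithelial markers gave -0.061 for *Fasn*, -0.037 for *Acly* and -0.12 for *Fads2*, with a median over the 10 genes of -0.26, and quantile normalization gave -0.0059 for *Fads2*. The centring shifts all genes of a tumor alike. The difference between the genotypes in the log2 ratio of *Scd2* to *Scd1* ranged from -0.038 to 0.12 with a tumor left out, an alternative added after seeing the data. Beyond these constructions, the cause was not tested.

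The 25 genes past the adjusted threshold became 7 without the filter (27871 genes tested), 42 with the centring, 10 with the replicate number as a block, and 6 to 28 with a tumor left out: 8 and 10 without Trp53fl/fl replicates 1 and 3, 17 without replicate 2, and 9, 6 and 28 without VP replicates 1, 2 and 3. Of the 25, 12 were higher in VP tumors and 13 lower (48.0% higher), against 12 and 8 with median-of-ratios rescaling (60.0%), 15 and 27 with the centring (35.7%), 7 and 3 with the replicate block (70.0%), and 58.8% to 75% higher with a tumor left out. The deviations of same-numbered tumors had correlations of 0.019, -0.052 and 0.018 over genes, and those of differently numbered tumors had -0.108 to 0.095. The labels do not say whether same-numbered tumors share anything beyond the number, and 3 tumors per genotype cannot settle it. TPM without depth limit what can be said of genes near 1 TPM.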
